A study of Mus musculus with 24 samples.

Results

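Long intergenic noncoding RNAs (lincRNAs) that were expressed in cultured mouse macrophages and dendritic cells were examined for their response to the STING agonist DMXAA and for their differences between the cell types. A lincRNA was taken as expressed where its row of the gene table had the biotype lincRNA and a deposited FPKM (fragments scaled to gene length and library size) of at least 1 in at least 3 of the 24 libraries. The rule kept 279 of 5559 lincRNA rows, in a table of 54532 genes of which 13732 passed the same FPKM rule. The members were therefore chosen by their measured level, which is described here and not tested. Without the BMDM libraries numbered 3 the rule would have kept 250, so 29 members entered through those 4 libraries.

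LincRNAs are transcripts without a long reading frame that lie between protein-coding genes, and most are spliced, polyadenylated and present at low level. Some are precursors that carry a microRNA or a snoRNA in their body, some act in the nucleus, and many are transcribed next to a coding gene that answers the same stimulus. DMXAA binds mouse STING, the adaptor encoded by Tmem173 that signals through TBK1 to IRF3 and NF-kB and so to type I interferon. In macrophages and dendritic cells interferon and NF-kB are known to induce several noncoding transcripts, of which Mir155hg, the precursor of miR-155, is the best studied.

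The study compared bone marrow-derived macrophages (BMDMs, grown in L929 cell-conditioned medium) with dendritic cells derived from marrow under GM-CSF and IL-4 (BMDCs). The marrow came from tamoxifen-treated mice, either Tmem173fl/fl (labelled WT) or Tmem173fl/fl carrying the inducible Lzym-Creert2 (Lyz2-Creert2) allele (labelled CRE), in which the promoter of the myeloid gene Lyz2 drives the recombinase. Control mice thus carried the floxed allele and received tamoxifen too. Cells were left as controls or stimulated with DMXAA, for which the design text gives 40 µM and the methods a different unit, so the concentration is uncertain, and no duration was stated for these libraries in particular. The 8 groups held 3 libraries of polyadenylated RNA each. The methods give ages for mice at tamoxifen treatment but tie none to these cultures. Whether the 3 libraries came from separate mice was not stated, so p-values measure the spread between these libraries, which may in part be technical.

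Total counts ran from 15657347 to 18912887 per library. Tmem173 stayed detectable in CRE libraries, at 8.76 to 10.4 FPKM in BMDMs against 9.91 to 31.8 in WT and at 19.7 to 36.8 in BMDCs against 28.8 to 55.3. The gene does not separate the labels in BMDCs or in control BMDMs. Under DMXAA it was at 31.8 and 22.8 FPKM in WT BMDMs and at 9.12 and 10.1 in CRE BMDMs, without overlap. The 4 BMDM libraries numbered 3 went against their label, with a median macrophage marker at 0.298 to 0.931 CPM (counts scaled to library total) against 703 to 1029 in the other 8, and a median fibroblast marker at 986 to 1672 CPM against 4.27 to 80.5. Each such group would then hold 1 library, so they are described apart and were left out of every BMDM test, which compared 2 libraries with 2. In the WT BMDM libraries numbered 2 the median fibroblast marker was at 80.5 (control) and 61.7 CPM (DMXAA) against 4.27 to 9.78 in the other 6. Among BMDCs, WT number 1 and CRE number 2 stood apart in control and DMXAA alike. Their median dendritic cell marker was at 302 to 798 CPM against 304 to 623 in the other 8. In CRE number 2 the median neutrophil marker was at 29.3 (control) and 15 CPM (DMXAA) and the summed macrophage markers at 2334 and 2211 CPM, against 0.592 to 2.40 and 6249 to 9233 in the other 8. WT number 1 did not share this, with the neutrophil median at 1.73 and 0.668 CPM and the macrophage sum at 9154 and 6513. What sets these 4 libraries apart was not tested.

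Of the members, 168 bear a Gm symbol, 69 a Rik symbol and 42 another name. Their median exonic length was 1298 bp, and in GENCODE M21, where 273 are still lincRNAs, 32 have 1 exon and 166 at most 2 or 3. Although called intergenic, 122 overlap another gene of the table and 38 a protein-coding gene. The library kit is not named as a stranded kit, so reads of a lincRNA and of an overlapping or antisense gene cannot be told apart here. A coding gene lay within 1 kb of another 46, and in 37 of these it started in the opposite direction. Levels were low, since the median over the members of their median FPKM in the 20 libraries was 0.761. Only 16 members had a median of at least 10, and the 5 of highest median took 56.0% of the members' counts. The rule's limit was shallow. Gm34397, Gm35154 and Gm39090 lay just inside it, with a third-highest FPKM of 1.02 each, and Gm49249, AC154378.1 and A430106G13Rik just outside, at 0.999, 0.996 and 0.992.

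Members that carry a microRNA are shown first, because their mature products make them the best characterised of the set. A mature microRNA lay inside 13 members on the same strand, in a search that left a chromosome out. The mature sequences below are from RefSeq (GRCm38.p6), 5′ to 3′, with the seed, bases 2 to 8, in capitals. They belong to Mir155hg (miR-155-5p at chr16:84714143-84714165, plus strand), Mir142hg (chr11:87756903-87756925, plus), Mir17hg (chr14:115043684-115044496, plus, from miR-17-5p to miR-92a-3p), Mir9-3hg (chr7:79505279-79505301, plus), E130102H24Rik (miR-101a-3p at chr4:101346957-101346977, minus) and AL805899.1 (miR-31-5p at chr4:88910614-88910635, minus).
miR-155-5p: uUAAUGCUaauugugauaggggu
miR-142a-3p: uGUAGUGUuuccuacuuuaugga
miR-17-5p: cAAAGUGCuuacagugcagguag
miR-20a-5p: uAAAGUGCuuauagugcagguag
miR-18a-5p: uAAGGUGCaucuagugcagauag
miR-19a-3p: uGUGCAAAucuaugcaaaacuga
miR-19b-3p: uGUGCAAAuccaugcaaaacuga
miR-92a-3p: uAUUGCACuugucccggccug
miR-9-5p: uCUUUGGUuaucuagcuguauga
miR-101a-3p: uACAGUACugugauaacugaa
miR-31-5p: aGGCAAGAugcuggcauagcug
Within the Mir17hg cluster miR-17-5p and miR-20a-5p share the seed AAAGUGC, and miR-19a-3p and miR-19b-3p share GUGCAAA. Polyadenylated libraries measure the host transcript, so no value below is a level of the mature microRNA.

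More of the members were present in BMDC than in BMDM libraries. The set was chosen over all 24 libraries, 12 of BMDCs, 8 of BMDMs numbered 1 and 2 and 4 of those numbered 3. Counted at 1 FPKM, 87 to 106 members were present per library in BMDMs numbered 1 and 2, and 84 to 90 in those numbered 3. In BMDCs the count was 114 to 125 in the 4 libraries that stood apart and 140 to 175 in the other 8. All genes of the table at 1 FPKM numbered 10398 to 10700 in BMDMs numbered 1 and 2 and 10572 to 10963 in those numbered 3. They numbered 10704 to 10808 in the 4 BMDC libraries and 11007 to 11458 in the other 8. By the same measure 78 members were present in BMDC libraries only, 7 in BMDMs numbered 1 and 2 only, 21 in BMDMs numbered 3 only, and 63 in all of these sets. The share of all genes confined to any of these sets is not given here, so the counts show nothing particular to the members. Just 23 members reached 1 FPKM in all 24 libraries, and the median member did so in 8. Among the 8 BMDC libraries the count was 140 to 148 in controls and 172 to 175 under DMXAA. The library size behind the deposited FPKM moved with treatment, because total counts were 0.861 to 0.968 of it in control BMDCs and 1.12 to 1.25 of it under DMXAA. At 0.5 CPM, a scale on total counts, all 12 BMDC libraries overlapped, with 174 to 197 members in controls and 169 to 211 under DMXAA. All 12 overlapped at 1 FPKM as well, with 114 to 148 in controls and 123 to 175 under DMXAA. The range at 0.5 CPM of the 8 libraries alone is not given, so the effect of the scale cannot be read here.

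**Figure D1:**
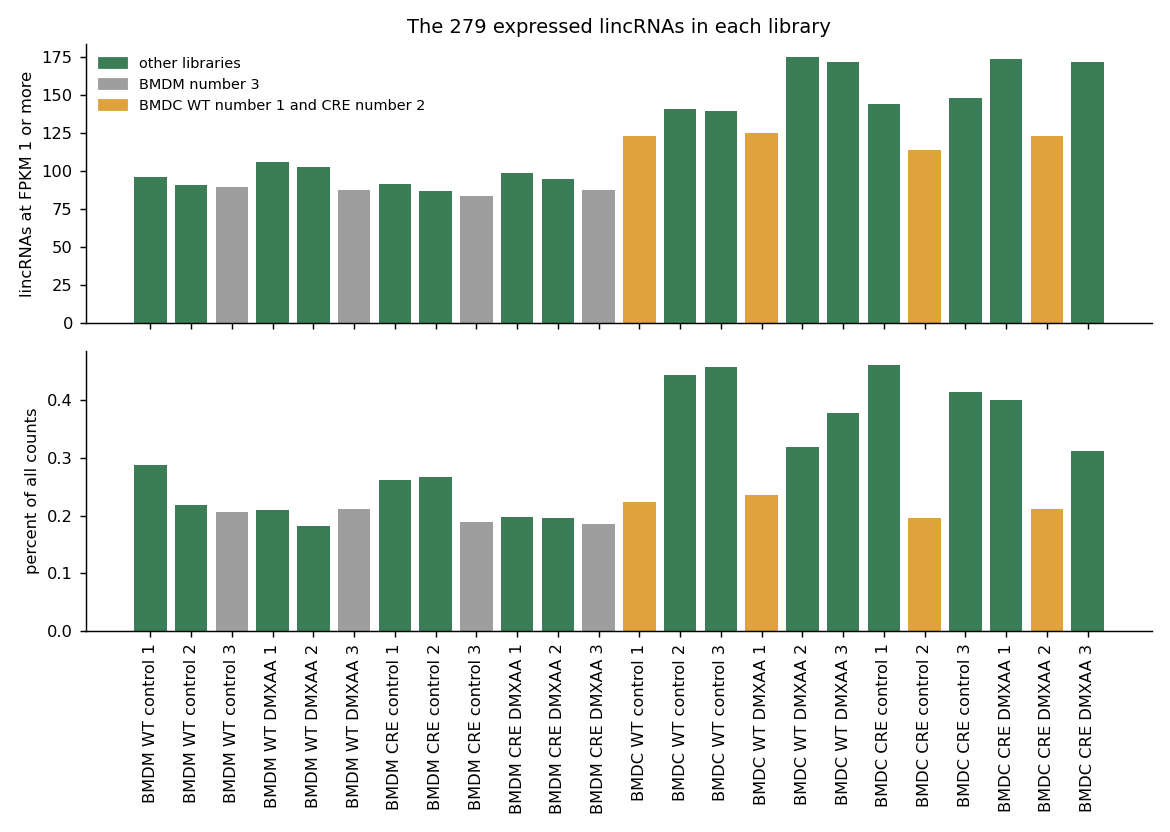
Number of the 279 members at 1 FPKM or more in each of the 24 libraries (upper bars, vertical axis from 0) and the members' share of all counts in percent (lower bars), 1 bar per library, with BMDM libraries numbered 3 in grey and the 4 BMDC libraries that stood apart in orange. BMDC libraries hold 114 to 175, BMDMs numbered 1 and 2 hold 87 to 106, and BMDMs numbered 3 hold 84 to 90.

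The BMDC libraries that stood apart were low in several of the most abundant members. Malat1, an abundant nuclear RNA, was at 11.6 to 18.1 FPKM in them against 42.5 to 111 in the other 8. Neat1, the scaffold of nuclear paraspeckles, was at 6.77 to 20.7 against 42.5 to 95.6, and Mir142hg, whose microRNA marks blood cells, at 19.8 to 27.5 against 53.8 to 100 FPKM. None of these ranges overlapped. All 4 libraries lay below all 8 others for 32 of 279 members, or 11.5%, beside 5.12% of all genes past the FPKM rule. They lay above all 8 for 8 members, or 2.87%, beside 5.54% of all genes. These libraries were picked out after their values were seen, so the shares are a description with no test.

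DMXAA changed many lincRNAs in WT BMDCs. Called here means an adjusted p under 0.05 in edgeR's quasi-likelihood test on the counts, with Benjamini-Hochberg adjustment over all genes tested. Of 221 members tested in BMDCs 65 were called, 48 higher and 17 lower, or 29.4% beside 32% of all 12523 genes tested. In the upward direction the background was 17.2% and in the downward direction 14.8%. The median log2 fold change was 0.06 over the members and 0.01 over all genes. Of the 48 members called higher, 32 were under 1 FPKM in every WT control library and 25 in every control library of the study. Those 25 met the expression rule through DMXAA libraries of either cell type or label, so their rise follows in part from the choice. Same-numbered control and DMXAA BMDC libraries of a label deviated together. With the number as a block within each label 99 members were called, 64 higher and 35 lower, beside 49.1% of all genes, and the 99 included all 65.

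AW112010, a transcript known to be induced by interferon, was the most abundant responder. It lies on chromosome 19 (11047617 to 11050566, minus strand, GRCm38) and overlaps no other gene. In WT BMDCs it was at 117, 45.2 and 85.4 FPKM in controls 1, 2 and 3 and at 911, 664 and 599.9 under DMXAA, without overlap. The log2 fold change was 3.14 (SE 0.55, adjusted p 0.00131, 3 against 3). In CRE BMDCs it was at 84.2, 260.0 and 53.7 FPKM in controls and at 583, 1004 and 702 under DMXAA, a log2 fold change of 2.52. Its highest control value came from CRE number 2, a library that stood apart.

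Mir155hg lies on chromosome 16 (84703167 to 84715245, plus strand) and rose in BMDCs of both labels. WT controls were at 14.0, 13.0 and 19.5 FPKM and WT DMXAA libraries at 78.9, 101 and 94.9, with no overlap. The log2 fold change was 2.56 (SE 0.32, adjusted p 0.000151), or 5.91-fold between the group means. CRE controls were at 19.8, 21.3 and 13.5 FPKM and CRE DMXAA libraries at 90.1, 39.0 and 88.6, a log2 fold change of 2.0 (SE 0.32, adjusted p 0.000899). The lowest of the stimulated values was again in CRE number 2.

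Several rises in BMDCs started from no reads. Gm34047 and Gm49427, which overlaps the chemokine receptor gene Cx3cr1, were at 0 in every WT control. Under DMXAA they were at 10.6, 1.52 and 3.06 FPKM and at 5.67, 0.812 and 6.56, at least 19.7-fold and 15.8-fold higher than a floor of 3 counts per library. 0610043K17Rik (at least 9.13-fold), Gm47242 (9.11-fold) and Gm40685 (7.11-fold) also were at 0 in all WT BMDC controls. Gm49212, at 0, 0.197 and 0.197 FPKM in controls, was at 26.7, 10.9 and 15.1 under DMXAA, at least 29.2-fold higher by the same floor. What these transcripts do is not known to the sources used here. 0610043K17Rik overlaps E130102H24Rik, the miR-101a host, whose reads therefore cannot be told apart from its own. E130102H24Rik was at 0.529 to 1.16 FPKM in WT BMDC controls and at 2.51 to 7.44 under DMXAA, a log2 fold change of 2.52 (SE 0.59, adjusted p 0.00674). Ptgs2os2, a transcript near the prostaglandin synthase gene Ptgs2, was at 0.0309, 0.146 and 0.350 FPKM in WT BMDC controls and at 0.960, 1.02 and 1.06 under DMXAA. Its log2 fold change of 2.49 (adjusted p 0.0402) missed the threshold without 5 of the 6 libraries and was 2.60 (0.00331) with the block, while Ptgs2 rose by 5.25 (0.00118).

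Falls in BMDCs were fewer and included RNAs with a known neighbour or microRNA. Of the 17 members called lower in WT BMDCs, 4 were under 1 FPKM in every DMXAA library of the study. Those 4 met the expression rule through control libraries of either cell type or label, so their fall follows in part from the choice. Pvt1, the lincRNA beside the oncogene Myc, was at 1.57, 2.02 and 1.78 FPKM in WT controls and at 0.249, 0.553 and 0.303 under DMXAA, a log2 fold change of -2.27. Mir9-3hg changed by -2.05 and Mir17hg, host of the miR-17 to miR-92a cluster, by -0.81 on the log2 scale. In CRE BMDCs Mir17hg was called with the block within the label only (-0.62, adjusted p 0.0366). AC140186.1 was at 2.75, 1.45 and 1.45 FPKM in WT controls and at 0 in all WT DMXAA libraries, at least 12.8-fold lower. Gm807 was at 5.19, 4.0 and 4.60 FPKM in WT controls against 0.784, 0.175 and 0.496, a log2 fold change of -3.25. Its neighbour at 77243 bp, Zfp366, a gene of dendritic cells, moved the other way there and rose by 1.46 on the log2 scale (adjusted p 0.00564). 4930509E16Rik (-3.62) and Gm49087 (-3.22) were called too, but the first missed the threshold without WT DMXAA number 1 (adjusted p 0.0508) or number 3 (0.0553), and the other without WT DMXAA number 1 (0.0566).

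Neat1 was lower under DMXAA in each of the 6 same-numbered BMDC pairs. In WT libraries it went from 20.7, 95.6 and 85.5 FPKM to 10.1, 42.5 and 51.9, and in CRE libraries from 87.3, 10.3 and 85.3 to 51.0, 6.77 and 44.9. The groups overlapped, because the libraries that stood apart were low in either condition, and the unblocked fit gave log2 fold changes of -0.95 in WT (SE 0.92, adjusted p 0.487) and -0.84 in CRE. With the number as a block within the label the same changes were -0.98 (adjusted p 0.000138) and -0.77 (0.000747). Malat1 did not pass in either fit, at -0.09 (adjusted p 0.768) in WT and 0.18 (0.554) in CRE with the block.

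CRE BMDCs were tested in the same way. Of the 221 members 48 were called in their response, 38 higher and 10 lower, or 21.7% beside 25.3% of all genes, with 14.2% of genes called higher and 11.1% lower. With the block within the label 85 were called beside 42.8% of all genes, 57 higher and 28 lower, and the 85 included all 48. Without the 4 libraries that stood apart the count was 74, and in WT 78. The share of all genes is not given beside these 2 counts, so they show no change particular to the members. Of the members called in CRE, 24 of the 38 higher were under 1 FPKM in all CRE controls, and 21 in every control library of the study. The rise of those 21 follows in part from the choice. Of the 10 lower, 4 were under 1 FPKM in every DMXAA library of the study, and their fall follows in part from the choice as well. Gm47242 (at least 12-fold higher), Gm40685 (9.87-fold) and 0610043K17Rik (8.84-fold) were at 0 in CRE controls as well. Gm49212 (at least 16.3-fold) and 2010110E17Rik (9.31-fold) also rose from CRE controls under the floor. Among the falls Gm807 (-2.99), Pvt1 (-1.81) and 4930477G07Rik (-3.03) kept their call without any of the 6 libraries in turn. 2210008F06Rik (-1.57) lost it without CRE control 1 (adjusted p 0.0776), CRE control 3 (0.0563), CRE DMXAA 2 (0.0503) or CRE DMXAA 3 (0.109). Gm20707 (-1.08) lost it without CRE control 1 (0.0627), CRE control 3 (0.0917), CRE DMXAA 1 (0.0919) or CRE DMXAA 2 (0.0676).

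The labels were compared directly under DMXAA in BMDCs. None of 221 members was called between CRE and WT (0 of 12523 genes, 0%), with 5 members at an unadjusted p under 0.05, and DESeq2 and limma also called 0. The difference between the labels in the response to DMXAA likewise gave 0 members (0% of genes) by edgeR, DESeq2 and limma, with 8 at an unadjusted p under 0.05. Libraries of the labels resembled each other in pairs, and Tmem173 did not separate them. Over genes, CRE number 3 correlated at 0.991 with WT number 2 and CRE number 1 at 0.991 to 0.992 with WT number 3, in control and DMXAA alike, above the 0.947 to 0.986 between libraries of 1 label. What these pairs of unlike label share was not tested, and the counts of 0 rest on the labels as given. For Mir155hg the responses were 2.56 and 2.0 and for AW112010 3.14 and 2.52 on the log2 scale.

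DMXAA changed many lincRNAs in WT BMDMs too. Of 157 members tested in BMDMs 54 were called, 29 higher and 25 lower, or 34.4% beside 37.7% of all 12072 genes tested, and 18% and 19.7% of genes in the upward and downward directions. The median log2 fold change was -0.27 over the members and -0.08 over all genes. Of the 29 members called higher 19 were under 1 FPKM in both WT controls. In every control library of the study 14 of them were under 1 FPKM. Those met the expression rule through DMXAA libraries of either cell type or label, so their rise follows in part from the choice. Of the 25 called lower, 2 were under 1 FPKM in every DMXAA library of the study, so their fall follows in part from the choice too. Fitted on the 4 WT libraries alone, 23 members were called beside 13% of all genes, and all 23 were among the 54. With all 12 BMDM libraries in the fit, those numbered 3 included, edgeR called 0 members, with 15 at an unadjusted p under 0.05. The share of all genes called in that fit is not given here.

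AW112010 was at 2.80 and 2.52 FPKM in WT BMDM controls and at 826 and 519 under DMXAA. The log2 fold change was 7.88 (SE 0.30, adjusted p 1.44e-05), a 253-fold difference of means. Mir155hg was at 0.0342 and 0.0662 FPKM in controls, under the floor, and at 11.0 and 10.2 under DMXAA, a rise of at least 105-fold (adjusted p 0.000181). Gm47242, on chromosome 19 (12539588 to 12540823), was at 0 in both controls and at 18.8 and 4.81 FPKM under DMXAA, at least 38.8-fold higher. Its neighbour at 4917 bp is Fam111a. Gm11216 (at least 50.8-fold), 1700041G16Rik (at least 14.0-fold) and Gm34643 (log2 fold change 4.54) were also among the largest rises, and none of these had overlapping libraries.

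The falls in WT BMDMs held snoRNA hosts, whose introns yield the small RNAs that guide ribosomal RNA modification. Of 6 snoRNA host genes among the members 4 were tested and 3 of those were lower in WT BMDMs, where 19.7% of all genes were. Snhg20 went from 2.51 and 3.32 FPKM to 0.854 and 1.36 (log2 fold change -1.48), Epb41l4aos from 12.1 and 16.6 to 4.11 and 5.63 (-1.65) and Snhg12 from 2.79 and 4.22 to 0.810 and 1.99 (-1.41). Epb41l4aos lost its call without 1 of the 4 libraries and Snhg12 without 2. The other tested host, Snhg6, was at 13.7 and 18 FPKM in controls and at 8.87 and 15.8 under DMXAA (-0.45, adjusted p 0.314). In WT BMDCs 1 of the same 4 was called, Snhg20 (-1.04, adjusted p 0.0305), beside 14.8% of all genes called lower. With the block Snhg12 was lower as well, by -0.69 in WT BMDCs (adjusted p 0.035) and -0.71 in CRE BMDCs (0.0337), as was Snhg20 in CRE BMDCs (-0.58, 0.0302).

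Among the other falls, Gm28875 went from 13.4 and 11.7 FPKM to 1.12 and 1.98, a log2 fold change of -3.10. It lies 3244 bp from Syne3, whose log2 fold change was -2.74 (adjusted p 0.00248). Mir17hg went from 3.35 and 2.87 FPKM to 0.250 and 0.763 (-2.68), and Neat1 from 48.2 and 34.1 to 18.7 and 13.5 (-1.45, SE 0.21, adjusted p 0.00265). A130077B15Rik (-2.91) and 2810455O05Rik (-2.43) kept their call without any of the 4 libraries. Pvt1 (-2.47) lost its call without 2 of the 4, and Gm5086 (-2.35) without WT control 1 (adjusted p 0.122) or WT DMXAA 2 (0.109).

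How many members were called in CRE BMDMs depended on the fit. Of 157 members 15 were called, 12 higher and 3 lower, or 9.55% beside 9.15% of all genes, with 6.8% of genes called higher and 2.35% lower. Of the 12 called higher 6 were under 1 FPKM in every control library of the study, so their rise follows in part from the choice. The count fell to between 1 and 3 without any of the 4 CRE libraries in turn, namely 1 without control 1, 1 without DMXAA 1, 2 without control 2 and 3 without DMXAA 2. No share of all genes is given beside these counts, so they show no change particular to the members. Fitted on the 4 CRE libraries alone the count of members called was 54, beside 55.6% of all genes, and held 14 of the 15. The same kind of fit on the 4 WT libraries gave 23, beside 13%, so the order of the labels by number of calls turns with the fit. AW112010 was the named member that kept its call in all these fits, at 3.70 and 3.60 FPKM in controls and at 49.9 and 56.9 under DMXAA. Its log2 fold change was 3.85 (SE 0.26, adjusted p 0.000259), or 14.6-fold between means. Gm47242 was at 0 in both controls and at 5.07 and 3.26 FPKM under DMXAA, at least 12.4-fold higher, with adjusted p between 0.162 and 0.202 when a library was left out. Gm39556 (at least 13.6-fold), Gm44066 (at least 6.09-fold) and Gm11216 (log2 fold change 3.58) likewise lost their calls, without 4, 3 and 4 of the libraries. So did the 3 falls, 1110019D14Rik (-1.52), Gm26917 (-1.06) and Tmem250-ps (-0.56), each without any of the 4. Mir155hg was at 0 in both controls and at 0.0840 and 0.0865 FPKM under DMXAA, at or near the floor (adjusted p 0.0915).

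**Figure D2:**
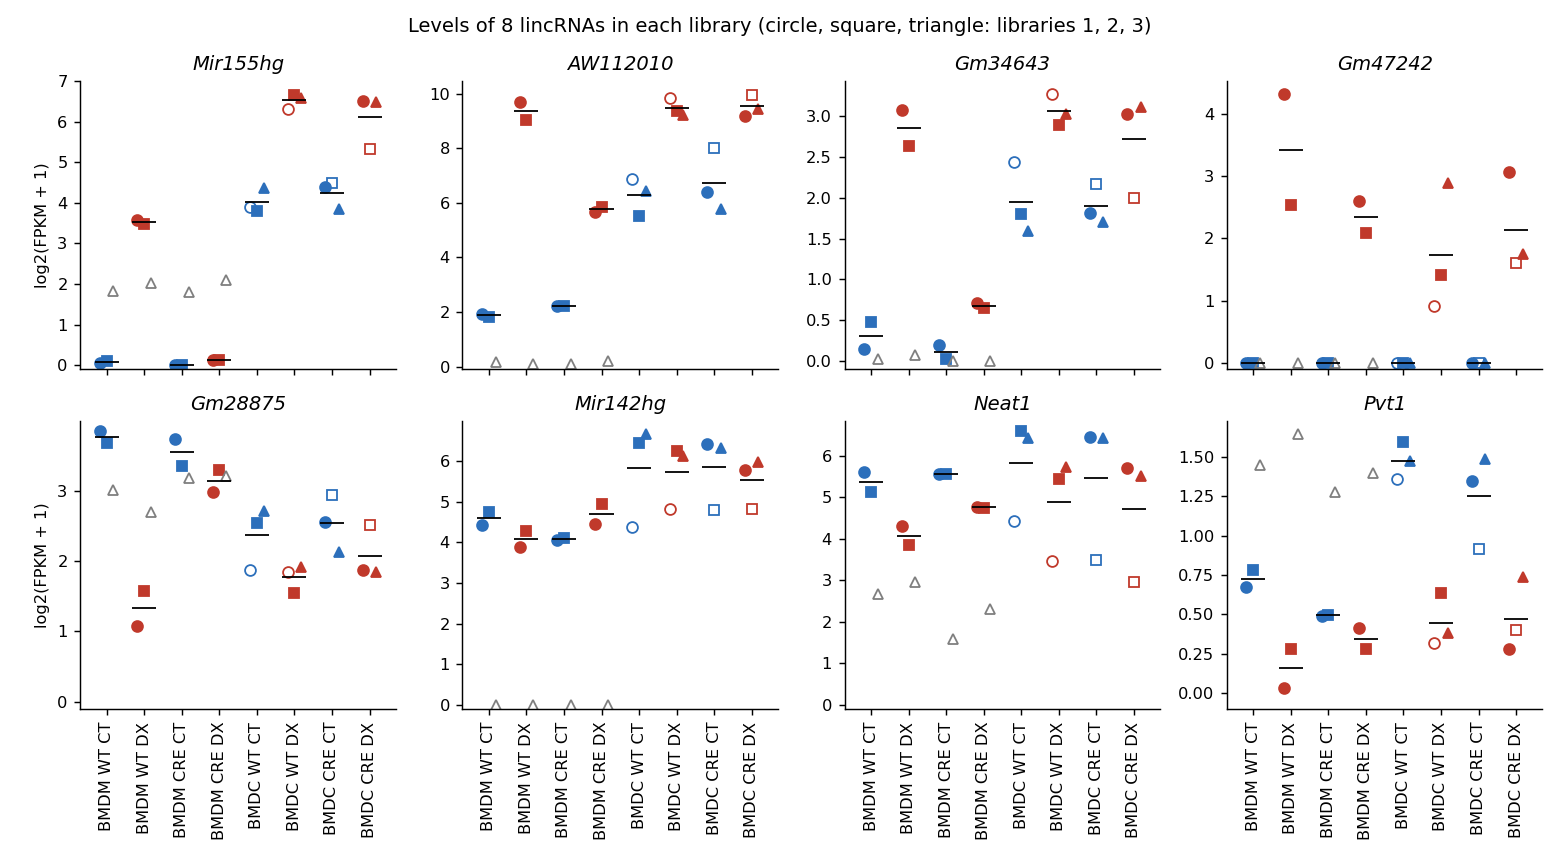
Levels of 8 members, as log2(FPKM + 1), in every library by cell type, label and treatment (CT, control; DX, DMXAA). Each point is 1 library, bars are means without BMDM number 3, grey open triangles are BMDM number 3 and open coloured points the BMDC libraries that stood apart. AW112010 and Mir155hg sit far higher in WT than in CRE BMDMs under DMXAA, while WT and CRE BMDCs overlap.

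Responses in the cell types were set side by side for the 147 members tested in both. In WT cells 27 were called in both. Of these 20 were higher in both, 7 were lower in both and 0 went opposite ways. A further 9 members were called in BMDCs only, 23 in BMDMs only and 88 in neither. A call in only 1 cell type does not show a difference between them. Among all 11843 genes tested in both 2675 were called in both, with 1434 higher in both, 1222 lower in both and 19 opposite. The 27 are 41.5% of all 65 members called in BMDCs and 50% of all 54 called in BMDMs. The 2675 are 66.8% and 58.8% of all genes called in BMDCs and BMDMs. These totals include calls not tested in the other cell type. Of 221 members tested in BMDCs 147 were tested in both, and of 12523 genes 11843. The shares of members and of genes therefore cannot be compared. In BMDCs the WT and CRE responses had 44 called members in common, 37 higher and 7 lower. That is 67.7% of the WT and 91.7% of the CRE calls, beside 73.7% and 93.1% over all genes. In BMDMs they had 13, or 24.1% and 86.7% beside 22.7% and 93.7% over all genes, of which Gm26917 was higher in WT and lower in CRE. Gm26917 (chromosome 17, 39843013 to 39846341) ends 13 bp before Rn18s-rs5, an 18S ribosomal RNA sequence in RefSeq, so its counts may share reads with repeated ribosomal DNA and are uncertain.

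**Figure D3:**
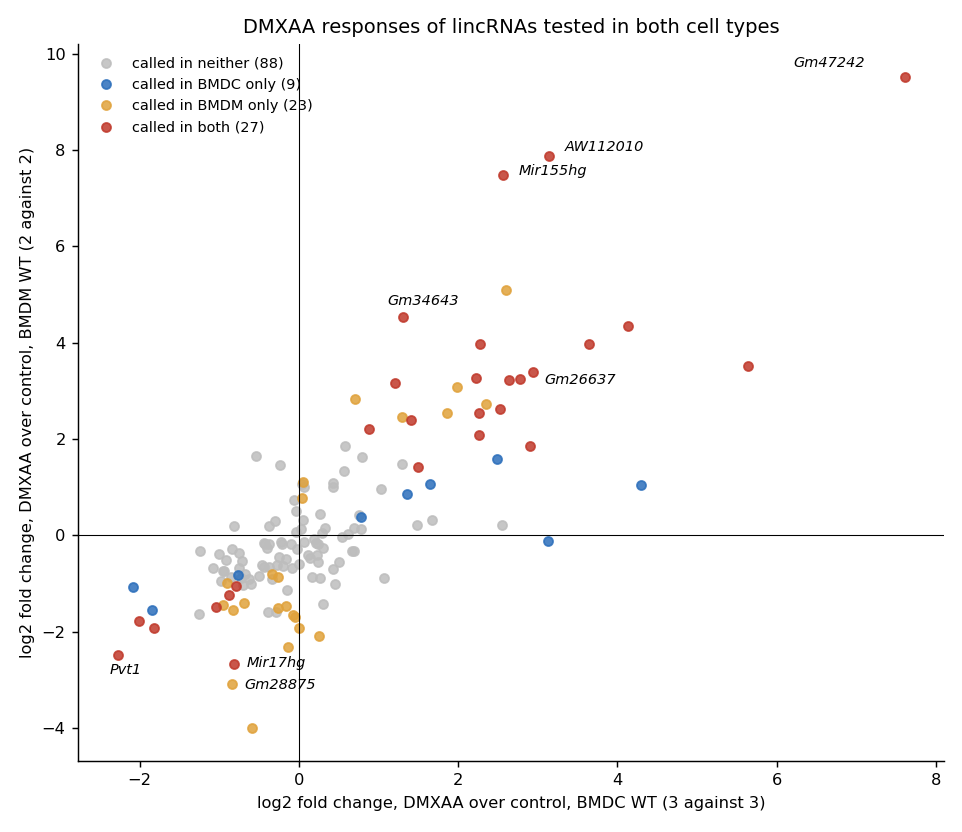
Log2 fold change, DMXAA over control, in WT BMDCs (horizontal axis) and WT BMDMs (vertical axis) of the 147 members tested in both, coloured by where they were called. Red points, the 27 called in both, lie in the upper right (20) or the lower left (7), and Mir155hg, AW112010 and Gm34643 lie well above equal responses.

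A set of 9 members was called higher in all 4 responses, namely AW112010, Gm47242, Gm26637, 9330175E14Rik, Gm7160, Gm36161, Gm26797, Gm44066 and AC130815.2, which are named after their values were seen. Membership depends on the CRE BMDM response, where most calls were lost when any CRE library was left out. The share of all genes called higher in all 4 responses is not given here, so the 9 are a list only. Some of them touch a gene of the interferon response. Gm26637 overlaps Eif2ak2, the double-stranded RNA kinase PKR, on the opposite strand, and 9330175E14Rik overlaps Nlrc5, a transactivator of MHC class I genes, also on the opposite strand. Gm26637 was at 0.306 to 1.11 FPKM in WT BMDC controls and at 3.57 to 5.65 under DMXAA, and in WT BMDMs at 0.492 and 0.414 against 6.49 and 3.81. Eif2ak2 rose by 3.03 in WT BMDCs and 3.93 in WT BMDMs on the log2 scale, and Nlrc5 by 3.82 and 4.97, and without strand these pairs cannot be separated. Gm7160 starts 124 bp from Zcchc2 in the opposite direction and overlaps no other gene. It went from 1.37, 1.58 and 1.01 FPKM to 4.24, 7.78 and 7.02 in WT BMDCs and from 0.829 and 1.47 to 5.12 and 5.32 in WT BMDMs, where Zcchc2 rose by 2.31 on the log2 scale.

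For comparison, 25 interferon-stimulated coding genes such as Isg15 and Ifit1 were all called higher in each of the 4 responses, with median log2 fold changes of 6.62 and 7.07 in WT and CRE BMDCs and 8.60 and 7.43 in WT and CRE BMDMs. Under DMXAA 18 of the 25 were lower in CRE than in WT BMDMs.

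Neighbouring coding genes moved with some of the members. Among members called higher in WT BMDMs 17 had their nearest tested coding gene at 1 bp to 50 kb, and that gene was higher in 11, lower in 1 and not called in 5. Among the 56 not called it was higher in 8, lower in 12 and not called in 36. In WT BMDCs the corresponding counts were 12 higher, 4 lower and 12 not called beside 28 members called higher, and 20, 10 and 58 beside 88 members not called. Beside members called lower they were 2, 5 and 8 of 15 in WT BMDMs and 1, 3 and 6 of 10 in WT BMDCs. Over all genes 18% were called higher and 19.7% lower in WT BMDMs, and 17.2% and 14.8% in WT BMDCs. A coding gene nearest to more than 1 member, such as Lsm8, can count more than once. Gm34643 lies 22520 bp upstream of Acod1, which makes itaconate in activated macrophages, on the same strand, and overlaps 4933432I03Rik. Acod1 rose by 6.57 in WT BMDCs and by 7.87 in WT BMDMs on the log2 scale. Pvt1 and Myc, 47612 bp apart, both fell, Myc by 2.14 in WT BMDCs and by 2.47 in WT BMDMs (adjusted p 0.0363). The nearest coding gene of AW112010, Ms4a8a at 16905 bp, changed by 0.37 in WT BMDCs (adjusted p 0.75). Mir155hg lies 2331 bp from Mrpl39, which changed by 0.49 in WT BMDCs (adjusted p 0.0945) and rose by 1.72 in WT BMDMs (adjusted p 0.00194).

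Promoter sequences were searched on both strands, from 250 bases before to 50 after the start RefSeq gives, for 141 members with a window there. The interferon-stimulated response element, as GAAANNGAAA, was in a window of 7 of these members, or 4.97% beside 3.99% of 27025 genes. Those genes are all with a window in RefSeq, expressed here or not. The NF-kB consensus was in 16, or 11.3% beside 9.55%, and the PU.1 core GAGGAAGT in 10, or 7.09% beside 3.69%. A PU.1 match overlaps an interferon element match in Gm33370. Of the 7 members with the interferon element 4 were called higher in WT BMDCs, 2 in CRE BMDCs and, of 6 tested, 3 in each BMDM response. Of the 16 with NF-kB 5 of 12 tested were called higher in WT BMDCs and 5 of 9 in WT BMDMs, with 1 lower there. The 10 with PU.1 had 2 of 9 called lower in WT BMDCs. Over all genes 17.2%, 14.2%, 18% and 6.8% were called higher in WT BMDCs, CRE BMDCs, WT BMDMs and CRE BMDMs, and 14.8% and 19.7% lower in WT BMDCs and WT BMDMs. These counts follow the choice of members and are a description. Windows of 3 members called higher under DMXAA are shown with the match in capitals (RefSeq, GRCm38.p6, each 5′ to 3′ on the gene's own strand). They are AW112010 (chr19:11050517-11050816, minus strand, NF-kB match 70 to 61 bases before the start), Gm34643 (chr14:103012625-103012924, plus, NF-kB match within the first 50 bases of the transcript) and Gm26797 (chr9:122310879-122311178, minus, interferon element 47 to 38 bases before the start).
AW112010: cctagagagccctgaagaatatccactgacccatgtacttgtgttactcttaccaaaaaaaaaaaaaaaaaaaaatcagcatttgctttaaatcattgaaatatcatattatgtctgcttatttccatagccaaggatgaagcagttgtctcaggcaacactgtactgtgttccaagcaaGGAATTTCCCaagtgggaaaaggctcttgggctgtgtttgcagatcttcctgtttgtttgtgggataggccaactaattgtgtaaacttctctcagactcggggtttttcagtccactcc
Gm34643: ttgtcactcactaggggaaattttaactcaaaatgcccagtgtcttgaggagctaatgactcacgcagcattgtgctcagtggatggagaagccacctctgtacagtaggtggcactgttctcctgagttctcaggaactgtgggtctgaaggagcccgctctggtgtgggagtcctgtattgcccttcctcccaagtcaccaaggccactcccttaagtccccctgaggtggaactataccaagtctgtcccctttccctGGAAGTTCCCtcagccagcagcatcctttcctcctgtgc
Gm26797: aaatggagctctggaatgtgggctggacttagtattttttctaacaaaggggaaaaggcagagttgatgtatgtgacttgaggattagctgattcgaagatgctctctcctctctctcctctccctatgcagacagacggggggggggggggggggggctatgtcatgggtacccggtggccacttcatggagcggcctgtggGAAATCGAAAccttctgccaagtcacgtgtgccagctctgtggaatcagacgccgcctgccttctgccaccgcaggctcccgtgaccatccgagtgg
Gm26797, whose window holds GAAATCGAAA, was at 0.145 and 0.0938 FPKM in WT BMDM controls and at 1.81 and 1.16 under DMXAA, a log2 fold change of 3.52 (SE 0.41, adjusted p 0.00109). Gm36161, with another such match, went from 3.60 and 2.64 FPKM to 42.8 and 21.1 there. Mir155hg had no match, but RefSeq places its start inside the transcript as the table gives it, so that the window is not at the table's start.

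Resting BMDCs and BMDMs differed in many lincRNAs. Between WT controls 63 of 207 members tested were called, 47 higher and 16 lower in BMDCs, or 30.4% beside 30.2% of all 12563 genes, with a background of 15.2% higher and 15% lower. The median log2 difference was 0.65 over the members and 0.00 over all genes. In 42 of the 47 every WT BMDM control was under 1 FPKM. Counted at 1 FPKM over all conditions, 78 members were present in BMDC libraries only and 7 in BMDMs numbered 1 and 2 only. The share of all genes confined in this way is not given here. Members so confined met the expression rule through the cell type where they are high. The excess of calls higher in BMDCs and the median therefore follow in part from the choice of members. Fewer cells of a type and less RNA per cell cannot be told apart in these bulk libraries.

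Mir155hg was at 14.0, 13.0 and 19.5 FPKM in resting WT BMDCs and at 0.0342 and 0.0662 in resting WT BMDMs, at least 154-fold higher (adjusted p 1.89e-07). AW112010 was 31.0-fold higher in resting BMDCs. Gm49087 (at least 73.6-fold), Gm6093 (49.3-fold), Gm6116 (22.3-fold) and Gm34907 (18.2-fold) were higher in BMDCs against WT BMDM controls under the floor. Gm5833 (at least 55.8-fold) lost its call without WT BMDM control 1 (adjusted p 0.0941) or 2 (0.0884). Mir9-3hg was at 1.02, 1.53 and 1.63 FPKM in BMDCs and at 0 and 0.0326 in BMDMs, at least 42.1-fold higher. In BMDCs DMXAA moved these members apart, since Gm6093 went up, from 1.09, 2.73 and 2.45 FPKM to 13.8, 12.7 and 13.8, while Gm49087, Gm34907 and Mir9-3hg fell.

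Members lower in BMDCs ranged widely in level. Gm28875 was at 4.33 FPKM on average in BMDCs and at 12.6 in BMDMs, a log2 difference of -1.53. Gm13710 was at 0, 0.158 and 0.211 FPKM in BMDCs and at 2.23 and 2.51 in BMDMs, a log2 difference of -4.16, and 2810455O05Rik at 0 to 0.211 against 1.07 and 1.23 (-3.59). Zfp469 (-4.01) was at 1.85 FPKM in WT BMDM control 2, the library with more fibroblast marker counts, and at 0.572 in control 1, and reached 10.2 in a BMDM library numbered 3. Gm14461 (-4.92) lost its call without any of 4 libraries, BMDC controls 1 (adjusted p 0.0706), 2 (0.0679) and 3 (0.0635) and BMDM control 2 (0.132). AC125351.1 (-3.14) lost it without BMDC control 1 (0.0643) or 2 (0.056) or BMDM control 1 (0.278).

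**Figure D4:**
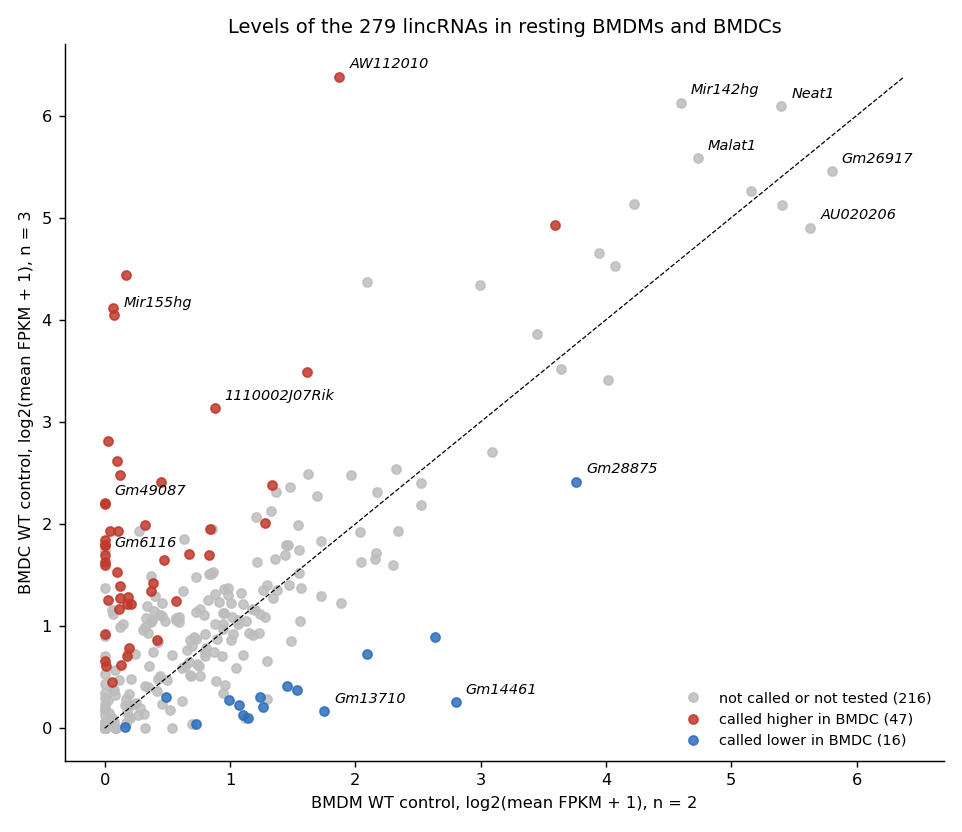
Mean level of the 279 members, as log2(mean FPKM + 1), in WT control BMDMs (horizontal axis, 2 libraries) and WT control BMDCs (vertical axis, 3 libraries), coloured by the test between them, with the dashed line marking equal levels. The 47 members called higher in BMDCs lie above the line, many of them near 0 in BMDMs, and the 16 called lower lie below it.

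The cell types also differed in the size of the response itself. In WT cells 4 of 207 members passed the test of cell type by DMXAA, or 1.93% beside 3.03% of all genes. For AW112010 the rise was smaller in BMDCs than in BMDMs by a log2 difference of -4.80 (SE 0.78, adjusted p 0.00312). For Mir155hg the fitted difference of -4.98 (SE 0.69, adjusted p 0.00155) depends on the prior count, because the BMDM controls are under the floor. Against the floor the rises were 2.56 in BMDCs and at least 6.72 in BMDMs on the log2 scale, a difference of -4.15 or beyond. Both were far higher in BMDCs at rest. Under DMXAA AW112010 reached 599.9 to 911 FPKM in WT BMDCs and 519 to 826 in WT BMDMs, ranges that overlap, while Mir155hg reached 78.9 to 101 and 10.2 to 11.0. Gm34643 (-3.28, adjusted p 0.0272) went from 4.43, 2.49 and 2.02 FPKM to 8.63, 6.42 and 7.12 in BMDCs and from 0.107 and 0.394 to 7.46 and 5.20 in BMDMs. Gm28875 (2.21, adjusted p 0.04) fell less in BMDCs, where its change was -0.80 with the block within the label (adjusted p 0.0348). Gm34643 lost its call without 6 of the 10 libraries, with adjusted p up to 0.126, and Gm28875 without 7, with adjusted p up to 0.218. On log2(FPKM + 1) limma gave a difference of -0.97 for Mir155hg (adjusted p 0.246), a scale on which its low BMDM control values are damped.

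The members most like Mir155hg over the 20 libraries, by Pearson correlation of log2(FPKM + 1), were A930007I19Rik (0.950), 1110002J07Rik (0.948), Gm14005 (0.923), Gm34643 (0.918) and A530076I17Rik (0.891). The libraries share cell type and treatment, so these values describe the pattern and carry no test. 1110002J07Rik was at 6.63, 7.05 and 9.62 FPKM in resting WT BMDCs against 0.994 and 0.679 in BMDMs. Gm14005, which lies 15772 bp from Bcl2l11, the gene of the cell death factor Bim, rose in WT BMDCs from 2.79, 3.25 and 3.04 FPKM to 7.93, 10.2 and 7.46.

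Under DMXAA CRE and WT BMDMs differed in 20 of 157 members, 12 higher and 8 lower in CRE, or 12.7% beside 18% of all genes, with 8.71% higher and 9.24% lower. Mir155hg was at 11.0 and 10.2 FPKM in WT and at 0.0840 and 0.0865 in CRE, at least 83.0-fold lower (adjusted p 0.00132). AW112010 was at 826 and 519 in WT and at 49.9 and 56.9 in CRE, 12.6-fold lower (log2 -3.60, adjusted p 0.00128). These calls held without any of the 4 libraries in turn. Tmem173 itself was at 31.8 and 22.8 FPKM in these WT libraries and at 9.12 and 10.1 in the CRE ones.

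Of the other members lower in CRE, Gm34643 was at 7.46 and 5.20 FPKM in WT and at 0.631 and 0.568 in CRE (log2 -3.34), Gm26809 at 15 and 9.22 against 3.05 and 1.99 (-2.21), and Gm20186 differed by -2.60. Gm28875 was higher in CRE, at 6.88 and 8.75 FPKM against 1.12 and 1.98 (2.37), as was Mir17hg (1.96), at 2.03 and 1.86 against 0.250 and 0.763. Gm42743 was at 0 in WT and at 1.35 and 2.30 FPKM in CRE, at least 11.7-fold higher, and was also at 0.148 and 0.400 in CRE controls. Gm37168 (2.26) and A430046D13Rik (2.07) lost their call without any of the 4 libraries. The count of 20 was 12 without WT DMXAA 1, 4 without CRE DMXAA 1 and 2 without CRE DMXAA 2, and Gm34643 then had adjusted p of 0.0682, 0.164 and 0.168. The share of all genes called in these fits is not given here, so the counts show no change particular to the members.

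The test of label by DMXAA in BMDMs called 4 members, or 2.55% beside 3.16% of all genes. AW112010 rose less in CRE than in WT by a log2 difference of -4.03 (SE 0.35, adjusted p 0.0105), 3.85 against 7.88, and lost the call without any of the 4 CRE libraries (adjusted p 0.0969 to 0.122). Gm28875 (2.62), Gm26532 (1.33) and Gm26917 (-1.84) lost theirs without 6, 5 and 7 of the 8 libraries. Gm26532 went from 14.4 and 15.9 FPKM to 6.02 and 5.72 in WT and from 15.2 and 15 to 13.9 and 13.9 in CRE.

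LincRNA levels in the BMDM libraries numbered 3 are described apart. With 1 such library per group there is no test, and values are given as they stand. At 1 FPKM or more 21 members appeared in these libraries only. Those 21 met the expression rule through these libraries alone, so their low level elsewhere follows from the choice. The share of all genes confined to these libraries is not given here. Snhg18, a snoRNA host, was at 18.5, 22.6, 30.9 and 33.4 FPKM in WT control, WT DMXAA, CRE control and CRE DMXAA, and at most at 0.797 elsewhere. The latter value was in WT BMDM control 2, the library with the highest fibroblast marker level among the other BMDMs. 3300005D01Rik was at 13.7 to 31.9 FPKM, AL805899.1, which spans Mir31, at 5.07 to 6.66, Gm7292 at 4.43 to 5.91 and Wincr1 at 4.03 to 7.07. Wincr1 was at 0 in all 20 other libraries. Mir142hg was at 0 in all 4, AW112010 at 0.0535 to 0.159 FPKM and Ptgs2os2, which lies 50816 bp from Ptgs2, at 6.01 to 12. Mir155hg was at 2.56 and 2.50 FPKM in the WT and CRE controls numbered 3 and at 3.07 and 3.31 under DMXAA, and Gm47242 was at 0 in all of them.

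Most members that rose in WT BMDMs 1 and 2 were too low in these libraries for a rise to be read. Of the 29 called higher there, 23 were under 1 FPKM in both WT libraries numbered 3, where log2(FPKM + 1) can hardly pass a 2-fold difference, and 0 passed it. 9330175E14Rik, for example, was at 0.0638 (control) and 0.305 FPKM (DMXAA) in the WT and at 0.0477 and 0.275 in the CRE libraries numbered 3. On the same scale, of all 279 members 1 was over 2-fold higher and 0 lower in the WT library, and 0 in either direction in the CRE library.

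**Figure D5:**
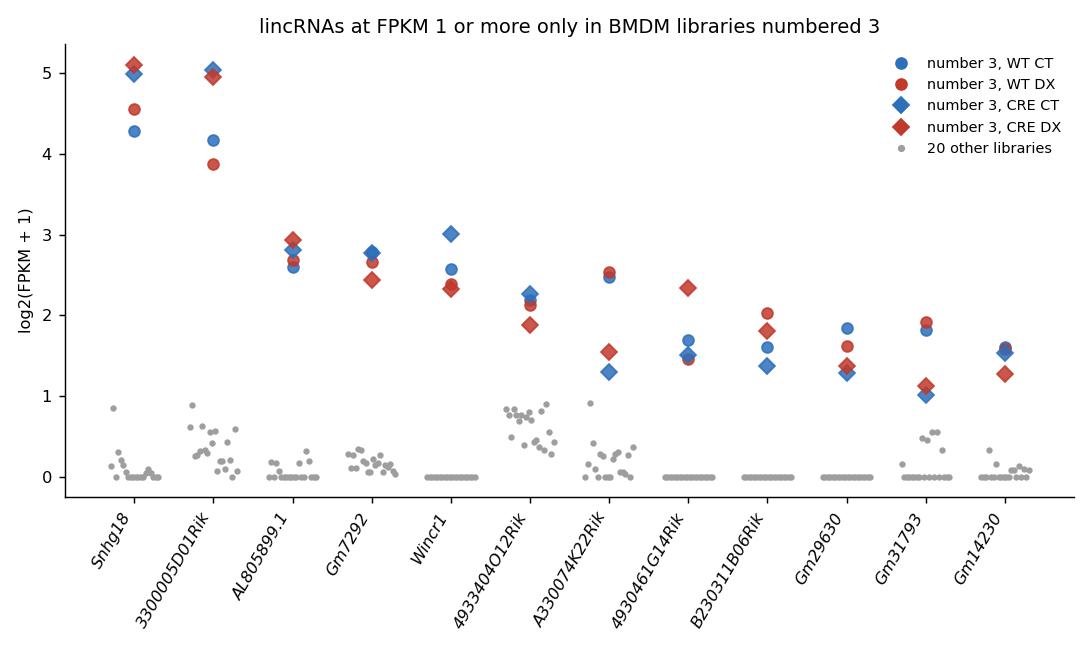
Level, as log2(FPKM + 1), of the 12 members of highest mean FPKM in BMDM libraries numbered 3 among those under 1 FPKM in the other 20 libraries. Large symbols are the 4 libraries numbered 3 (colour gives treatment, shape the label) and small grey points the other 20, whose highest value is 0.888 FPKM.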

How the data were processed

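Polyadenylated RNA of 24 libraries in 8 groups was measured by RNA sequencing. The deposited gene table gives, per library, raw counts and FPKM that the authors made. Per the labels the tools were CASAVA 1.8, fastp, HISAT2 2.0.5, featureCounts 1.5.0-p3 and DESeq2 1.20.0, with the builds GRCm38 and mm10; the role of each is not given in the sources used here. The library size implied by the deposited FPKM differs from the count sum, so FPKM is used for levels and counts for tests. Columns of the authors' own comparisons were not used. All 48 columns of counts and FPKM matched a library.

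The members, lists and tests were chosen with earlier results of these data known. Genes past the FPKM rule with a mean of at least 0.5 CPM over the libraries of the fit were tested with edgeR 4.0.16 (R 4.3.3) by the quasi-likelihood test with TMM scaling, with 1 fit per cell type over all its groups (cell type contrasts over the 20 libraries), Benjamini-Hochberg adjustment and a threshold of 0.05. BMDM number 3 was left out of these fits. Folds against a group under 3 counts per library are lower bounds against that floor, and floors cover counting error only, since reads were not counted as molecules. Alternatives used DESeq2 1.42.0, limma 3.58.1 on log2(FPKM + 1) or log2(FPKM + 0.1), other filters and designs. The fits were tested on simulated counts.

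Same-numbered control and DMXAA libraries of a label correlated in their deviations from the group means in BMDCs, by 0.584, 0.359 and 0.441 in WT and 0.464, 0.662 and 0.566 in CRE, so the number was also used as a block there. Named were Mir155hg, members of 3 lists of host and well-studied RNAs, the most abundant members, the 5 largest called rises and falls per comparison with at least 1 FPKM in the higher group and no overlap, and the members nearest to the threshold, most like Mir155hg or highest in BMDM number 3 alone. Other members in the text, among them those risen in all responses, E130102H24Rik and Gm26797, were chosen after their values were seen.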

Additional observations from a re-analysis of the deposited data

Results flagged for a closer look

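In WT cells 4 members passed the test of a difference between cell types in the response to DMXAA. The fitted log2 difference, BMDC minus BMDM, was -4.98 for Mir155hg, -4.80 for AW112010, -3.28 for Gm34643 and 2.21 for Gm28875. The value for Mir155hg depends on the prior count, since its BMDM controls are under the floor of 3 counts, and against that floor the difference is -4.15 or beyond. The first 2 kept their call without any of the 10 libraries, whereas Gm34643 lost it without 6 and Gm28875 without 7.

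In BMDMs 4 members passed the test of a difference between labels in the response. The log2 difference, CRE minus WT, was -4.03 for AW112010, -1.84 for Gm26917, 1.33 for Gm26532 and 2.62 for Gm28875. They lost the call without 4, 7, 5 and 6 of the 8 libraries.

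The BMDM libraries numbered 3, which entered no test, held 21 members at 1 FPKM or more that were under 1 FPKM in all 20 other libraries, Snhg18 at 18.5 to 33.4 FPKM and Wincr1 at 4.03 to 7.07 among them. The 21 met the expression rule through these libraries alone, so their low level elsewhere follows from the choice. Beside them the median fibroblast marker was at 986 to 1672 CPM there and at 4.27 to 80.5 in the other BMDMs, and its part was not tested.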

How the results depend on the processing

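Counts of called members moved by more than 1.5 times in these cases. The share of all genes called under each setting is not set beside them here. The counts below therefore do not show a change particular to the members. With a mean of at least 2 CPM, which tests fewer members, 34 were called in the WT and 27 in the CRE BMDC response and 30 between resting cell types. With members that overlap no other gene, a smaller set, the counts were 34 and 21 for WT and CRE BMDCs, 21 and 7 for WT and CRE BMDMs, 37 between cell types, 2 for cell type by DMXAA and 9 between labels in BMDMs under DMXAA. With only the compared groups in the fit, which leaves fewer libraries for the spread, 23 were called in WT and 54 in CRE BMDMs. With all 12 BMDM libraries 30 members were called between cell types and 0 in each BMDM response, in both interactions and between labels, and 15, 3, 4, 1 and 5 of them had an unadjusted p under 0.05 in the WT response, the CRE response, cell type by DMXAA, label by DMXAA and the label comparison.

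With the number as a replicate block within the label 99 and 85 members were called in WT and CRE BMDCs, 30 in CRE BMDMs and 9 for label by DMXAA in BMDMs, where a replicate block across labels gave 2. In BMDMs the correlation of same-numbered libraries was 0.648 in WT and 0.0108 in CRE, with 2 pairs each, too few to settle whether the number pairs them. The block gave 77 in WT BMDMs. Without the BMDC libraries that stood apart, an alternative chosen after seeing the data, 74 were called in CRE BMDCs. DESeq2 called 7 members for cell type by DMXAA and 7 for label by DMXAA in BMDMs. Limma called 14 on log2(FPKM + 1) and 11 on log2(FPKM + 0.1) for the former, and 9 on log2(FPKM + 1) for the latter. Where no construction is named the cause was not tested.

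Leaving out each library in turn gave 1 to 3 members in the CRE BMDM response, 2 to 6 for cell type by DMXAA, 2 to 22 between labels in BMDMs under DMXAA and 0 to 9 for label by DMXAA there. For named members 967 alternative values were computed over 66 results. The sign changed in 0, 802 kept their side of the threshold and 165 no longer passed it, of which 103 of 350 left out 1 library and 39 of 45 added BMDM number 3. Depth limits members near 0.5 CPM, and with 2 libraries a group in BMDMs a missed call does not show that a member did not change.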

Other observations

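Members outside the comparisons above also varied between libraries of 1 group. AU020206, among the 5 members of highest level, was at 23.4 FPKM in WT BMDM control 2 and at 73.8 to 83.0 in the other 3 control BMDM libraries numbered 1 or 2, and at 3.25 to 4.40 FPKM in those numbered 3. The median fibroblast marker was at 80.5 CPM in WT BMDM control 2 and at 4.27 to 9.78 in the others apart from its DMXAA partner, and its part in the low AU020206 value was not tested. In WT BMDCs AU020206 went from 25.2, 30.3 and 31.3 FPKM to 75.5, 70.3 and 76.9 under DMXAA (edgeR log2 fold change 1.36).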
